A study of Mus musculus with 8 samples.

Results

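The genes described here encode the proteins of the cytosolic ribosome. They were taken as the rows of the count table whose symbol has the standard form for a protein of the small (Rps) or large (Rpl) subunit, together with Rplp0, Rplp1, Rplp2 and Rpsa, while rows named as pseudogenes with -ps were left out. This gave 87 of 31610 genes: 31 proteins of the 40S subunit, 46 of the 60S subunit, 6 paralogs (Rpl3l, Rpl7l1, Rpl22l1, Rpl39l, Rps4l and Rps27l) and 4 further copies (Rps3a2, Rps3a3, Rpl32l and Rpl6l). Of the 87, 82 are annotated as protein coding and 5 as pseudogenes, namely Rps4l and the 4 copies. Rpl10l was not analysed here.

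RNA came from lung endothelial cells, the cells that line blood vessels, isolated by flow cytometry from C57BL/6J mice. There were 4 libraries from mice given an adeno-associated virus (AAV) for nANGPTL4, the amino-terminal fragment of a secreted inhibitor of lipoprotein lipase, and 4 from mice given a control AAV, and all were independent biological replicates per the series' description. The nANGPTL4 AAV libraries carry the title NT Treated, which is not explained, so their group rests on the treatment field. The sources used here do not state the promoter, serotype or dose of the vectors, the time after injection or the age of the mice. Total counts ranged from 91750817 to 108921765 in nANGPTL4 AAV libraries and from 83183122 to 114337333 in control AAV libraries. The cells carried endothelial transcripts in both groups, with the 16 pan-endothelial markers summing to 26273 to 27304 CPM (read counts scaled to library size) in nANGPTL4 AAV and 27840 to 28134 CPM in control AAV libraries. The sum was thus lower in every nANGPTL4 AAV library than in any control AAV library with this scaling. The scaling includes a TMM factor for each library. It was 1.008 to 1.023 in nANGPTL4 AAV and 0.969 to 0.994 in control AAV libraries, and the sums without it were not compared. In bulk samples like these, fewer cells of a type and less RNA per cell cannot be told apart.

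A ribosome consists of a small 40S subunit, which reads the message, and a large 60S subunit, which joins amino acids. Its proteins are made in matched amounts, and their messenger RNAs are short and share a 5′ terminal oligopyrimidine (TOP) tract: transcription starts at a C that is followed by a run of C and T. The TOP tract places their translation under control of the kinase mTORC1 through the repressor LARP1, so the protein output of these genes can change without a change in their RNA, which is what was measured here.

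The start windows below show this shared feature, since it is the sequence that defines the class. RefSeq promoter windows on GRCm38.p6 were matched for 57 of the 77 subunit genes (67 windows). A tract, defined as a C followed by at least 4 bases that are each C or T, began exactly at the annotated start in 13 of the 57 genes, 22.8%, against 3.01% of the 27025 genes with a window. Within 5 bases of the start it was found in 27 of the 57 genes, 47.4%, against 21.2% of all genes. The windows run from 10 bases before to 20 bases from the start on, 5′ to 3′ on the gene's own strand, with the tract in capitals. The last of them, Rps26, has its tract 4 bases after the annotated start and is shown because it is among the 6 subunit genes with the smallest p below.
Rpl14, chr9:120571507-120571536, plus strand: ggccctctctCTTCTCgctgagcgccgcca
Rpl15, chr14:18270967-18270996, minus strand: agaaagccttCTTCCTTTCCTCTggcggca
Rpl28, chr7:4792955-4792984, plus strand: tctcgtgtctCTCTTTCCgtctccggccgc
Rpl35, chr2:39005112-39005141, minus strand: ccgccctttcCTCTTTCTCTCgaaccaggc
Rpl35a, chr16:33056472-33056501, plus strand: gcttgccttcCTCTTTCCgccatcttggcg
Rpl38, chr11:114668570-114668599, plus strand: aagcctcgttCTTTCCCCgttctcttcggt
Rplp2, chr7:141447641-141447670, plus strand: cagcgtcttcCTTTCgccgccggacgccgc
Rps10, chr17:27635225-27635254, minus strand: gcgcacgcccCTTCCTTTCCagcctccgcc
Rps15a, chr7:118116128-118116157, minus strand: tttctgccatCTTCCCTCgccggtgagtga
Rps18, chr17:33955646-33955675, minus strand: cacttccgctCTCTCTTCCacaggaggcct
Rps21, chr2:180257369-180257398, plus strand: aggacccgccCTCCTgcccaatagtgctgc
Rps27, chr3:90213629-90213658, minus strand: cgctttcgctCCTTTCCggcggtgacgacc
Rps6, chr4:86857348-86857377, minus strand: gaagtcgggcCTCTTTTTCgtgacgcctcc
Rps26, chr10:128626487-128626516, minus strand: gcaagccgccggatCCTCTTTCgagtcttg

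A pair of other short motifs was searched on both strands of the same windows, which hold 250 bases before and 50 after the start. CCGGAAG, the core bound by ETS factors, was present in 24 of the 57 genes, 42.1%, against 9.93% of all genes, and CCATCTT, the core bound by YY1, in 9 of 57, 15.8%, against 7.28%. A match describes letters only, and a gene without one may start elsewhere than annotated. The 27 genes with a TOP tract within 5 bases of the start had a median log2 fold change (nANGPTL4 AAV minus control AAV) of 0.07, with 27 of 27 positive, and the 30 with a window and no such tract one of 0.06, with 27 of 30 positive.

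The ribosomal protein genes held a small share of the counts in every library. They made up 0.359%, 0.384%, 0.347% and 0.348% of the counts in nANGPTL4 AAV libraries 1 to 4, and 0.347%, 0.317%, 0.336% and 0.341% in control AAV libraries 1 to 4. The means were 0.360% ± 0.0171 in nANGPTL4 AAV and 0.335% ± 0.0131 in control AAV (SD, n = 4 each). The groups overlapped only through control AAV library 1, which lay just above the lowest nANGPTL4 AAV library. The summed CPM, which is scaled by TMM, overlapped more widely, at 3412 to 3752 CPM in nANGPTL4 AAV and 3205 to 3581 CPM in control AAV libraries. The balance of the subunits did not differ beyond the spread between libraries: the ratio of summed 60S to summed 40S CPM was 1.607 ± 0.0201 in nANGPTL4 AAV and 1.615 ± 0.0126 in control AAV libraries (SD, n = 4 each).

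Levels of single genes spread widely, and most lay above that of a typical gene. Per kb of annotated exons, the median of the 77 subunit genes was 16.3 CPM, with quartiles of 9.04 and 30.2 CPM and a span from 1.97 to 123 CPM, which is 62.4-fold. The median of 11633 protein-coding genes at 1 CPM or more was 6.47 CPM per kb, and the median subunit gene stood at percentile 75.2 of them. Annotated exons include retained introns that lengthen some of these genes. Per kb of the principal transcript the median was 32.5 CPM (36.6 CPM for 40S and 31.01 CPM for 60S genes), the span 2.39 to 180 CPM, and the percentile 80.7. On that scale elongation factor Eef1a1 stood at 270.4 CPM per kb, Actb at 2430 and the endothelial adhesion gene Pecam1 at 819.6, all above every subunit gene.

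**Figure D1:**
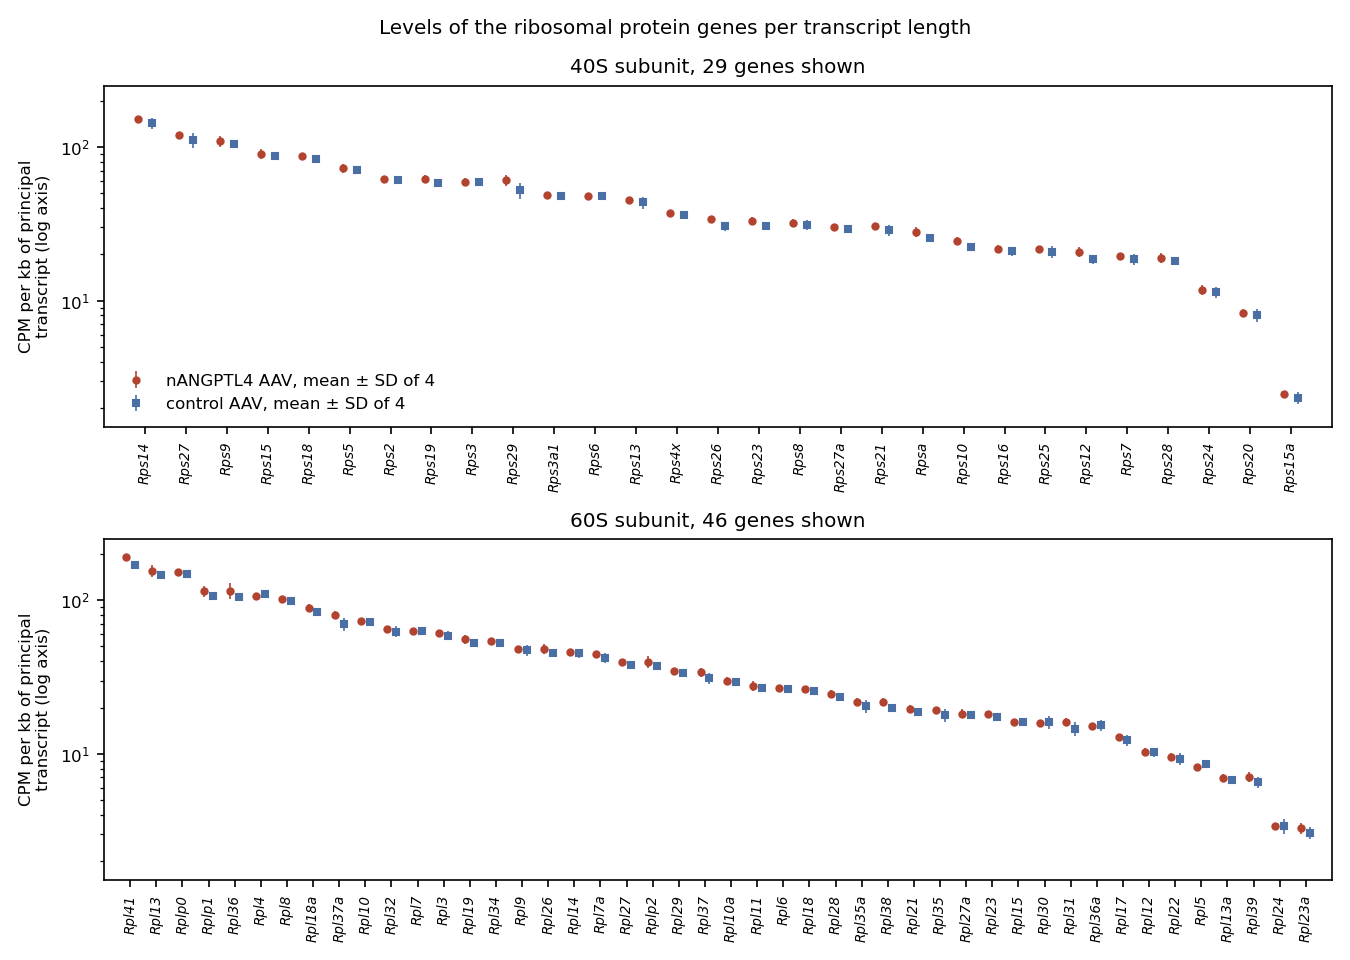
CPM per kb of principal transcript (log axis) of 29 genes of the 40S subunit (top) and the 46 of the 60S subunit (bottom), as mean ± SD of 4 libraries, with nANGPTL4 AAV as circles left of control AAV as squares. Levels run from 2.39 CPM per kb for Rps15a to 180 for Rpl41, and the distance between the groups is small beside the distance between genes.

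Among the 40S genes with the highest levels per kb of annotated exons was Rps15, at 71.8 ± 5.63 CPM per kb in nANGPTL4 AAV and 69.1 ± 2.64 in control AAV (SD, n = 4 each). Among the 60S genes these were the stalk proteins Rplp0, at 125 ± 4.70 CPM per kb in nANGPTL4 AAV and 121 ± 2.74 in control AAV, and Rplp1, at 115 ± 9.34 in nANGPTL4 AAV and 107 ± 5.20 in control AAV. In each of these 3 genes the groups overlapped. At the low end were Rps15a, at 2.02 ± 0.0980 CPM per kb in nANGPTL4 AAV and 1.93 ± 0.175 in control AAV, and Rps24, at 3.02 ± 0.229 in nANGPTL4 AAV and 2.91 ± 0.243 in control AAV, whose annotated transcripts are long. Rpl23a and Rpl24 were low on every length scale. Rpl23a had 1.72, 2.04, 1.83 and 1.70 CPM in nANGPTL4 AAV libraries, against 1.68, 1.495, 1.80 and 1.84 CPM in control AAV libraries. Rpl24 had 2.31, 2.38, 2.17 and 2.34 CPM in nANGPTL4 AAV libraries, against 2.25, 2.19, 2.04 and 2.67 CPM in control AAV libraries.

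Sequence of these genes recurs in transcripts of other annotated genes, both copies elsewhere and genes that overlap them at the same locus. This bears on how reads were assigned, since the sources used here do not state how reads with several matches were treated. Of the 31-base stretches of a subunit gene's longest transcript, a median of 42.9% were also found in transcripts of other annotated genes. Over 50% were shared in 28 of 77 genes, and 76 of 77 shared at least some, Rps14 being the exception. Rpl23a shared 81.7% of its stretches with 46 other genes, 45 of them pseudogenes, and Rpl24 82.2% with 13. Of Rpl24's stretches 70.3% were found in Gm28037, a gene on the same strand that overlaps 47.0% of its annotated exons. In Rpl13a, Rps10 and Rpl35 too, the gene with the largest share overlaps the locus, namely Gm45713, RPS10-NUDT3 and Wdr38. Sharing with copies and with overlapping genes was not counted apart. Rpl36 shared 94.1% and stood at 44.0 CPM in nANGPTL4 AAV and at 40.5 CPM in control AAV. Rpl5 shared 94.8% and stood at 16.9 CPM in nANGPTL4 AAV and at 17.5 CPM in control AAV. Fam69a, a gene on the opposite strand, overlaps 24.3% of the annotated exons of Rpl5. Whether shared sequence lowered the counts of any of these genes was not tested. Across the 77 genes the shared percentage and the level per kb had a Spearman correlation of 0.18 (0.005 per kb of principal transcript), a description over genes that share libraries. The 200 rows named as -ps pseudogenes of 54 of these genes held 0.736% to 0.817% of the ribosomal protein counts in nANGPTL4 AAV libraries and 0.675% to 0.789% in control AAV libraries. For Rpl23a, however, its 6 such rows held 28.2% as many counts as the gene itself. Genes with other names that share sequence are not among the 200 rows, such as Gm10132, which held 68.8% of the stretches of Rpl23a.

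The small-subunit gene Rps3a1 and its copies show how close such sequences are. The coding sequence of Rps3a2 matched that of Rps3a1 at 99.5% of 792 aligned bases, with 4 mismatches, and that of Rps3a3 at 98.9% of 795, with 9. The stretch of coding bases 181 to 270 with the most differences is given below from GENCODE M21 transcripts on GRCm38, with bases that differ from Rps3a1 in capitals.
Rps3a1, gene at chr3:86137940-86142702, minus strand: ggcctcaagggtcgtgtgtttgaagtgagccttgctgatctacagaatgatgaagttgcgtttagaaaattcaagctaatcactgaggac
Rps3a2, gene at chr14:88123017-88123808, minus strand: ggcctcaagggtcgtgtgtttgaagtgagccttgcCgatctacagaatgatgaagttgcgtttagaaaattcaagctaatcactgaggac
Rps3a3, gene at chr13:108670603-108671397, plus strand: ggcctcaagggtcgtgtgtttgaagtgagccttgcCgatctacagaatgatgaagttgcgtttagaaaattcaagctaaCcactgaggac
Rps3a1 averaged 47.6 CPM in nANGPTL4 AAV and 47.1 CPM in control AAV. Rps3a2 had 11 to 18 counts in nANGPTL4 AAV and 12 to 23 in control AAV libraries, and Rps3a3 10 to 14 counts in nANGPTL4 AAV and 8 to 20 in control AAV libraries. The copies thus held very few counts beside the gene, and whether these are their own transcripts was not tested. Rpl32l, with 3 to 18 counts in nANGPTL4 AAV and 6 to 10 in control AAV libraries, and Rpl6l, with 3 to 16 in nANGPTL4 AAV and 3 to 4 in control AAV libraries, did not pass the filter on low counts, nor did Rpl39l, a paralog best known from testis, which had at most 2 counts in any library. The filter thus kept 84 of the 87 genes, all 77 subunit genes among them.

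The comparison of the groups asks how the RNA of the ribosomal protein genes differs when nANGPTL4 is delivered. No gene of the 87 was called: 0 of 84 passed an adjusted p under 0.05 over all genes by edgeR's quasi-likelihood test, where 0.138% of the 18874 tested genes did, 0.0477% higher and 0.0901% lower. Most had a small positive difference in nANGPTL4 AAV. The log2 fold change was positive in 76 of 84 genes, among them 31 of 31 of the 40S and 42 of 46 of the 60S subunit, against 52.2% of all tested genes. The median was 0.06 for all 84, 0.06 for the 40S and 0.06 for the 60S genes, beside 0.01 for all tested genes, and the median standard error of a single gene was 0.06. Among genes of similar abundance, those with a mean log2 CPM over 3, only 37.5% were positive and the median was -0.03.

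At an unadjusted p under 0.05 in the edgeR test, 6 of 84 genes were higher and 0 lower, where 7.35% of all tested genes were higher and 10.3% lower. Of the genes of similar abundance 4.26% were higher. The count of 6 was 22 with upper quartile scaling, 23 with library size only, 12 without control AAV library 1 and 2 with the GC content and length correction. In 3 genes, Rpl41 and Rps26 among them, every nANGPTL4 AAV library lay above every control AAV library, where 3.89% of all tested genes did so, and in 0 genes did every nANGPTL4 AAV library lie below, where 6.99% did. DESeq2, which called 6.14% of the 15580 genes it gave an adjusted p, called 1 ribosomal protein gene, Rpl41.

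**Figure D2:**
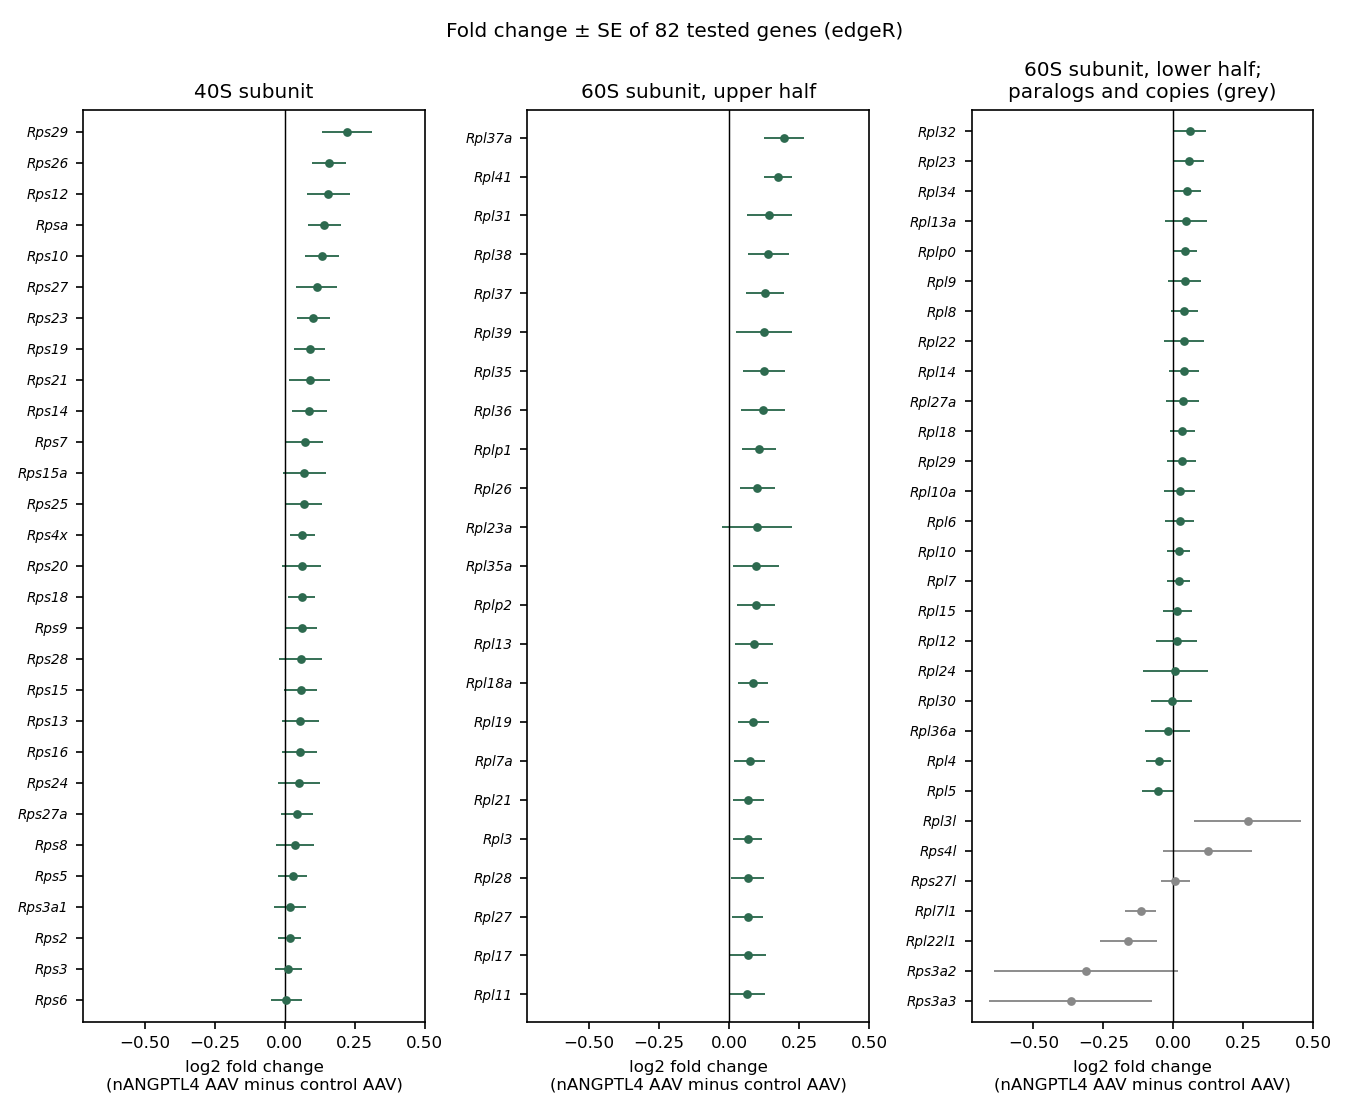
Log2 fold change (nANGPTL4 AAV minus control AAV) with its standard error from edgeR for 82 of the 84 tested genes, with 40S genes on the left, 60S genes in the middle and on the right, and paralogs and copies in grey. All 40S points lie right of 0, though Rps15 and Rps6 among others are left of it with the GC content and length correction, and Rpl5, Rpl4, Rpl36a and Rpl30 are the 60S genes left of it.

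Rpl41, which encodes a peptide of the large subunit that is the smallest ribosomal protein, had the smallest p. It had 110.3, 114, 115 and 106 CPM in nANGPTL4 AAV libraries 1 to 4, against 103, 91.4, 97.2 and 103 CPM in control AAV libraries 1 to 4. All nANGPTL4 AAV libraries lay above all control AAV libraries. The log2 fold change was 0.17 (SE 0.05, unadjusted p = 0.0051, adjusted p = 0.119 by edgeR and 0.0324 by DESeq2). Its adjusted p lay between 0.0324 and 0.505 over 24 alternatives, and only DESeq2 called it. With a correction for GC content and length its log2 fold change was 0.08. Of its 31-base stretches 36.2% recur in 5 other genes.

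Rps26, which lies where the messenger RNA leaves the 40S subunit, had 22.9, 24.1, 22.2 and 23.2 CPM in nANGPTL4 AAV libraries, against 22.1, 18.6, 20.9 and 21.3 CPM in control AAV libraries. Here nANGPTL4 AAV library 3 and control AAV library 1 were nearly tied (log2 fold change 0.16, SE 0.06, edgeR adjusted p = 0.223, and 0.10 with this correction).

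In the other genes with a small p the groups overlapped. The highest fold changes of each subunit were among them. Rps29, a zinc-binding 40S protein, had 23.2, 26.6, 22.4 and 23.0 CPM in nANGPTL4 AAV libraries and 20.3, 17.3, 20.8 and 23.3 CPM in control AAV libraries, with nANGPTL4 AAV library 2 highest and control AAV library 2 lowest. Rpl37a, a zinc-binding 60S protein, had 44.0, 49.0, 44.0 and 42.5 CPM in nANGPTL4 AAV libraries and 42.5, 34.7, 37.5 and 42.0 CPM in control AAV libraries, with the same libraries at the extremes. Their log2 fold changes were 0.22 (SE 0.09, edgeR adjusted p = 0.233) and 0.20 (SE 0.07, edgeR adjusted p = 0.192), and 0.10 and 0.09 with the GC content and length correction. Rpsa, which is both a 40S protein and the laminin receptor precursor, averaged 54.3 ± 3.72 CPM in nANGPTL4 AAV and 49.3 ± 2.73 CPM in control AAV (log2 fold change 0.14, SE 0.06, edgeR adjusted p = 0.245). Rpl38, required in mouse embryos for translation of some Hox messages, averaged 9.99 ± 0.544 CPM in nANGPTL4 AAV and 9.07 ± 0.556 CPM in control AAV. Rpl37 averaged 28.4 ± 1.85 CPM in nANGPTL4 AAV and 25.9 ± 2.05 CPM in control AAV. Neither passed, with edgeR adjusted p-values of 0.347 and 0.357 (SD, n = 4 each). Their log2 fold changes were 0.14 and 0.13, and 0.0075 and 0.055 with that correction.

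**Figure D3:**
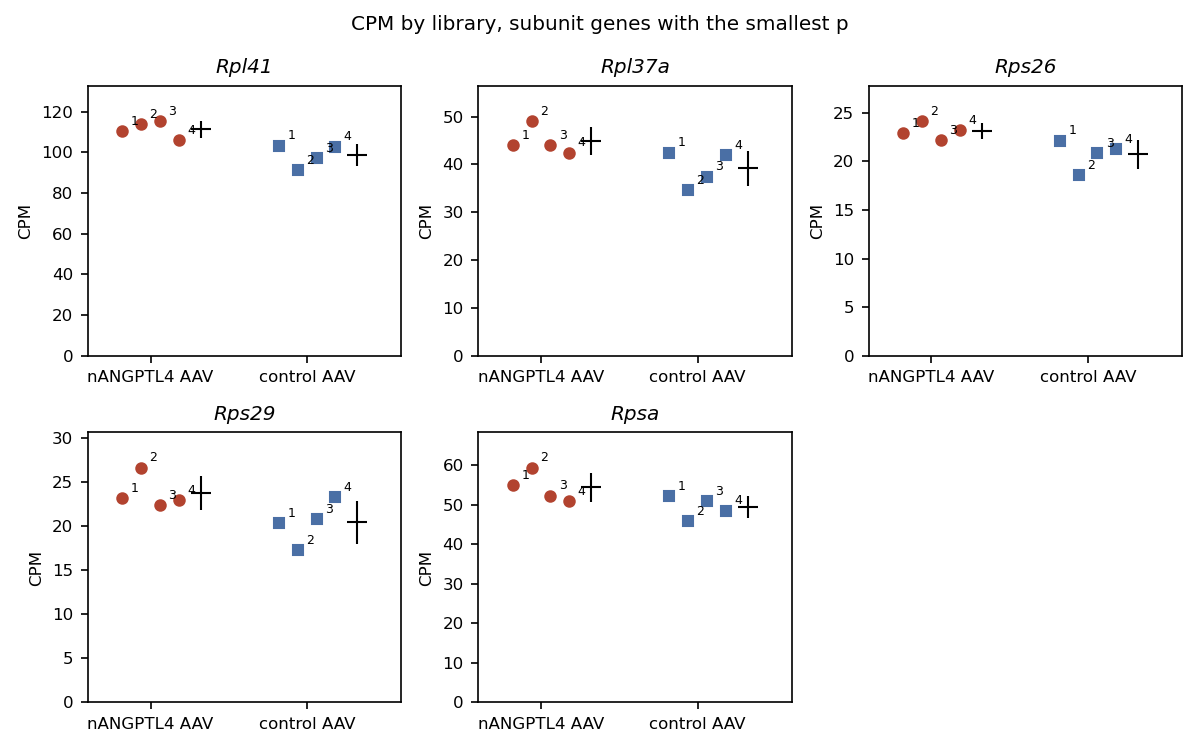
CPM of 5 of the 6 subunit genes with the smallest p in each of the 4 nANGPTL4 AAV libraries (circles, left) and the 4 control AAV libraries (squares, right), with library numbers and, in black, the mean ± SD of each group. Control AAV library 2 is lowest in all 5 genes and nANGPTL4 AAV library 2 highest in 4 of them, Rpl41 being the exception.

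Some subunit genes also have roles outside the ribosome or in its regulation. Rps6, whose protein is phosphorylated downstream of mTORC1, had 42.3, 45.2, 41.3 and 40.7 CPM in nANGPTL4 AAV libraries, against 44.8, 38.6, 43.6 and 42.0 CPM in control AAV libraries, and the groups lay over each other (log2 fold change 0.01, SE 0.06). Rpl5 and Rpl11, which with 5S RNA can bind and inhibit the p53 ligase MDM2, differed in sign. Rpl5 averaged 16.9 ± 0.708 CPM in nANGPTL4 AAV and 17.5 ± 0.687 CPM in control AAV (log2 fold change -0.06, SE 0.06). Rpl11 averaged 23.2 ± 1.67 CPM in nANGPTL4 AAV and 22.2 ± 1.16 CPM in control AAV (log2 fold change 0.06, SE 0.06, and -0.01 with a correction for GC content and length). Rps3, which also takes part in DNA repair, and Rpl4, at the exit tunnel of the 60S subunit, had log2 fold changes of 0.01 and -0.05. The edgeR adjusted p of these 5 genes lay between 0.590 and 0.969.

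The stalk proteins, which recruit translation factors to the 60S subunit, all had positive log2 fold changes that did not pass. They were 0.04 for Rplp0, 0.11 for Rplp1 and 0.10 for Rplp2, with SEs of 0.04, 0.06 and 0.07. Rplp1 was -0.02 with the GC content and length correction. Of 6 ribosomal protein genes whose symbols fall outside the naming form 5 were positive and 0 were called by either tool, and their median was 0.07. Fau, made as a fusion with a ubiquitin-like protein, averaged 37.0 ± 2.19 CPM in nANGPTL4 AAV and 33.9 ± 2.11 CPM in control AAV (log2 fold change 0.12, SE 0.06, edgeR adjusted p = 0.310). Rack1, a scaffold on the 40S subunit, had a log2 fold change of 0.01 and Rpl36al one of -0.04, and neither passed.

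Paralogs replace a core protein in some tissues or states. Ratios to a partner were taken for a fixed list of pairs, of which 4 had counts of both genes in every library. Among the 4 was Rpl36al, which lies outside the naming form, while Rps4l and Rpl3l were not in that list. Rps4l, annotated as a transcribed pseudogene, had 129, 115, 92.1 and 68.2 CPM in nANGPTL4 AAV libraries, against 97.1, 82.9, 99.8 and 92.1 CPM in control AAV libraries. The nANGPTL4 AAV libraries spanned the whole range of the control AAV libraries and more, with an SD of 26.8 CPM in nANGPTL4 AAV against 7.44 CPM in control AAV. Rpl3l, which replaces Rpl3 in heart and skeletal muscle, stood at 1.36 ± 0.278 CPM in nANGPTL4 AAV and 1.14 ± 0.225 CPM in control AAV (SD, n = 4 each).

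Rps27l, a p53 target in human cells, had CPM values near those of Rps27. Per kb of annotated exons its mean ratio to Rps27 was 1.09 in nANGPTL4 AAV and 1.18 in control AAV libraries. Rps27l shared 75.3% of its coding bases with Rps27. Its first 90 coding bases are shown with those of Rps27, with differences in capitals, to show how far the pair has diverged, with 24 differences in this stretch.
Rps27, gene at chr3:90212522-90213651, minus strand: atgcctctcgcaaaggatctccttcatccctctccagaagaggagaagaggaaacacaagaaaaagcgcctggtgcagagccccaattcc
Rps27l, gene at chr9:66946086-66949516, plus strand: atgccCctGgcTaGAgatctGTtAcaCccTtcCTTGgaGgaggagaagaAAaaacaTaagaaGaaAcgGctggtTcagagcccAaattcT
Rps27l averaged 35.2 ± 1.14 CPM in nANGPTL4 AAV and 35.0 ± 1.95 CPM in control AAV (log2 fold change 0.01, SE 0.05), and Rps27 41.4 CPM in nANGPTL4 AAV and 38.3 CPM in control AAV (log2 fold change 0.11, SE 0.07).

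Rpl22l1, the paralog of Rpl22, shared 70.9% of its coding bases, and coding bases 181 to 270, with 23 differences, are shown for the same reason.
Rpl22, gene at chr4:152325742-152334071, plus strand: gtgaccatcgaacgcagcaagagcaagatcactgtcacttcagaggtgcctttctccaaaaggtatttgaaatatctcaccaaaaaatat
Rpl22l1, gene at chr3:28805436-28807424, plus strand: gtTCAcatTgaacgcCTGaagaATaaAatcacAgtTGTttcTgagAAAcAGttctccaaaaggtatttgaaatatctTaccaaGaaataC
Rpl22l1 had 5.44, 5.48, 6.61 and 5.76 CPM in nANGPTL4 AAV libraries, against 7.06, 5.53, 6.74 and 6.73 CPM in control AAV libraries. The log2 ratio of Rpl22l1 to Rpl22 was -1.75 ± 0.20 in nANGPTL4 AAV and -1.55 ± 0.11 in control AAV (SD, n = 4 each), with groups that overlapped. The log2 ratio of Rpl7l1 to Rpl7 was 0.16, -0.01, 0.11 and 0.20 in nANGPTL4 AAV libraries, against 0.29, 0.27, 0.24 and 0.23 in control AAV libraries. These groups did not overlap, with nANGPTL4 AAV lower by 0.14. The ratios were planned as a description without a test. An exact two-sided permutation test added to that plan gave p = 0.0286 for Rpl7l1 to Rpl7, the smallest that 4 against 4 libraries allow. After Benjamini-Hochberg adjustment over the 4 paralog pairs tested it was 0.114. The other pairs had exact permutation p-values of 0.114 for Rpl22l1, 0.229 for Rps27l and 0.800 for Rpl36al to Rpl36a. Rpl7l1, whose protein is known in assembly of the 60S subunit, was at -0.12 on the log2 scale (SE 0.05), which did not pass (edgeR adjusted p = 0.295).

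The lean toward higher values was not spread evenly over the libraries. As the deviation of log2 CPM from each gene's mean over 8 libraries, the median of the 84 genes was 0.03, 0.11, -0.01 and 0.0007 in nANGPTL4 AAV libraries 1 to 4, and 0.04, -0.13, -0.05 and 0.007 in control AAV libraries 1 to 4. In nANGPTL4 AAV library 2, 75 of 84 genes were above their mean and 49 had their highest value. In control AAV library 2, 2 of 84 were above their mean and 61 had their lowest value. The other 3 libraries of each group overlapped, with 60, 35 and 43 of 84 genes above their mean in nANGPTL4 AAV libraries 1, 3 and 4, and 68, 18 and 50 in control AAV libraries 1, 3 and 4. Without nANGPTL4 AAV library 2 and control AAV library 2, an alternative chosen after seeing the data, the median log2 fold change was 0.01, 54 of 84 genes were positive and 1 was higher at an unadjusted p under 0.05.

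**Figure D4:**
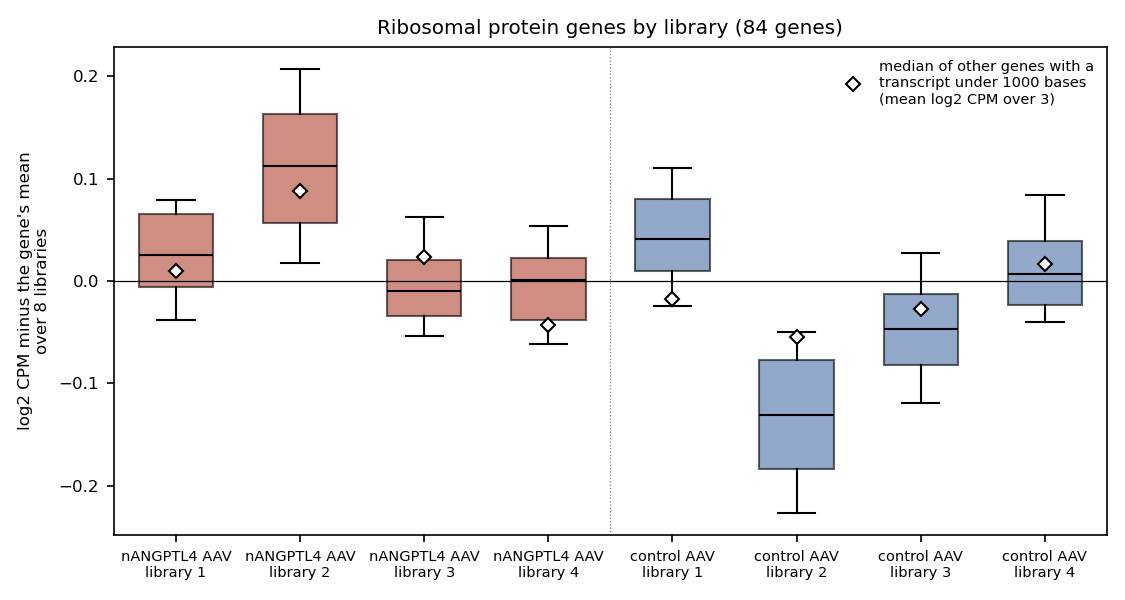
Deviation of log2 CPM from each gene's mean over 8 libraries for the 84 tested ribosomal protein genes, in nANGPTL4 AAV libraries (left) and control AAV libraries (right), with the box from the first to the last quartile, the line at the median and whiskers from the 10th to the 90th percentile. Diamonds are the median deviation of 396 other genes with a transcript under 1000 bases and a mean log2 CPM over 3, which are highest in nANGPTL4 AAV library 2 (0.09) and lowest in control AAV library 2 (-0.06), as the ribosomal protein genes are.

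Transcript length went with the same difference. Ribosomal protein transcripts are short, with a median principal transcript of 886 bases for the 77 subunit genes against 2563 bases for all tested genes. Among other genes with a mean log2 CPM over 3, the median log2 fold change was 0.06 for the 116 with a principal transcript under 700 bases, 0.03 for those of 700 to 1000, 0.01 for those of 1000 to 1500, -0.03 for those of 1500 to 3000 and -0.06 for the 4924 of 3000 bases and over. The subunit genes in these classes numbered 23, 26, 17, 9 and 2, with medians of 0.10, 0.06, 0.05, 0.03 and 0.07. Their median was above that of other genes in each of the 5 classes. Across the 77 genes the Spearman correlation of log2 fold change with length was -0.39 and with GC content 0.24, again over genes from the same libraries. After a correction for GC content and length in each library, 54 of 84 genes were positive with a median of 0.02, and with the length of the principal transcript 48 of 84 with a median of 0.01. Of the 77 subunit genes 52 and 46 were then positive. With the correction on the principal transcript the medians in the 5 length classes, from the shortest up, were 0.0066, 0.0018, 0.0099, 0.043 and 0.13 for the subunit genes, against -0.025, -0.023, -0.018, -0.021 and -0.019 for the other genes, so that the subunit genes were above the other genes in each class there too.

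**Figure D5:**
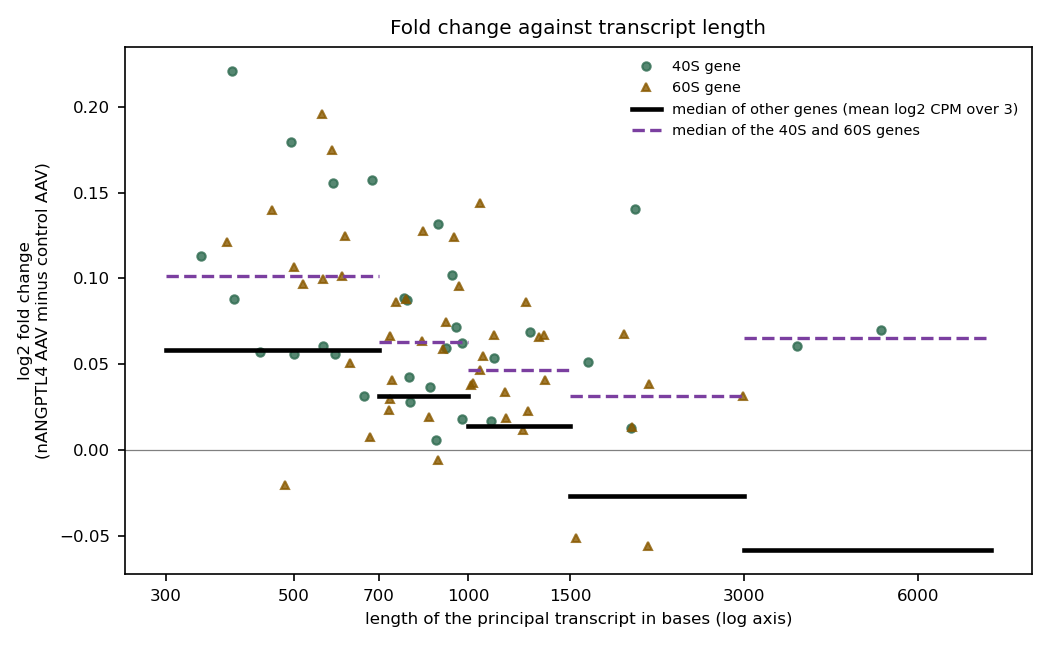
Log2 fold change (nANGPTL4 AAV minus control AAV) against the length of the principal transcript (log axis) for the 31 genes of the 40S subunit (circles) and the 46 of the 60S subunit (triangles). Black bars are the median of other genes with a mean log2 CPM over 3 in each length class, which falls with length, with 0.06 in the shortest and -0.06 in the longest class, and purple dashed bars are the median of the subunit genes, with 0.10 in the shortest class.

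Genes that build ribosomes leaned the other way. Of the 52 tested ribosome biogenesis factors, 46 had negative log2 fold changes, with a median of -0.10, and 18 were lower at an unadjusted p under 0.05. Of genes with a mean log2 CPM over 3, 62.5% were negative, the median was -0.03 and 18.2% were lower at that p, against 10.3% of all tested genes. DESeq2 called 7 of the 52, where it called 6.14% of all genes it gave an adjusted p. EdgeR called 1 of the 52, where it called 0.138% of all tested genes. This was Heatr1, a factor for transcription and early processing of ribosomal RNA, which fell. It had 25.9, 23.5, 27.3 and 26.7 CPM in nANGPTL4 AAV libraries, against 32.6, 34.7, 34.2 and 32.2 CPM in control AAV libraries, with a clear gap between the groups (log2 fold change -0.37, SE 0.06, edgeR adjusted p = 0.0416). Heatr1 was called in 5 of 24 alternatives, with adjusted p up to 0.238 and log2 fold changes of -0.39 to -0.30, and leaving out any 1 of the 8 libraries ended the call. Bysl, a factor of 40S maturation, was at -0.28 on the log2 scale (SE 0.05), with an adjusted p of 0.0654 by edgeR and 0.0022 by DESeq2. The number of positive factors was 6 to 14 of 52 over the alternatives, and 9 with the GC and length correction on the principal transcript.

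Among genes for the machinery above the ribosomal protein genes, edgeR called 0 and DESeq2, which called 6.14% of all genes, called 2 of 12 for RNA polymerase I and its factors, 3 of 30 for mTORC1 and TOP control, 2 of 11 for the MYC network and 1 of 15 for p53 and nucleolar stress. Of genes with a mean log2 CPM over 3, 62.5% were negative and 18.2% lower at an unadjusted p under 0.05. Of 12 genes of RNA polymerase I and its factors, which transcribe ribosomal RNA, 7 were negative and 5 lower at an unadjusted p under 0.05, with Taf1a and Polr1e both at -0.25 (adjusted p = 0.109 and 0.113 by edgeR, 0.0195 and 0.0189 by DESeq2). Of 30 genes of mTORC1 and TOP control, 20 were negative. Tsc1, an inhibitor of mTORC1, averaged 45.0 ± 0.913 CPM in nANGPTL4 AAV and 38.3 ± 1.98 CPM in control AAV (log2 fold change 0.23, SE 0.05, adjusted p = 0.0657 by edgeR and 0.0012 by DESeq2). Eif4e, the cap-binding factor, averaged 41.5 ± 2.07 CPM in nANGPTL4 AAV and 48.4 ± 1.30 CPM in control AAV (log2 fold change -0.22, SE 0.05, adjusted p = 0.0694 by edgeR and 0.0048 by DESeq2). In neither gene did the groups overlap, where 3.89% of all tested genes lay higher without overlap and 6.99% lower. In the 11 genes of the MYC network, which drives ribosome production, 7 were negative, with Mlx at -0.17 and Max at -0.26, neither called by edgeR and both by DESeq2 (adjusted p = 0.0085 and 0.0343). The 15 genes of p53 and nucleolar stress had a median of 0.01, with Gadd45a at 0.25, called by DESeq2 alone of the 2 tools (adjusted p = 0.0201), and Aen at -0.17.

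Other messages with a TOP tract varied in sign. Of 20 such genes for translation factors and related proteins 11 were positive, with a median of 0.01. Eif3e had a log2 fold change of -0.16 and Pabpc1, which encodes the poly(A)-binding protein, one of 0.14, both with groups that did not overlap and neither called (edgeR adjusted p = 0.121 and 0.144). Of all tested genes, 6.99% lay lower without overlap in nANGPTL4 AAV and 3.89% higher. Of 8 TOP genes that host small nucleolar RNAs 5 were positive, with a median of 0.07, Snhg8 at 0.27 and Gas5 at 0.13. Ribosomal proteins of the mitochondrion, 78 genes that form a separate ribosome, had a median of 0.01 with 42 positive. Mrps6 at -0.28 and Mrpl17 at -0.20 had the smallest p (adjusted p = 0.0876 and 0.1005 by edgeR, 0.0072 and 0.0251 by DESeq2). DESeq2 called 4 of the 78, near the 6.14% of all genes that it called. No difference between these lists was tested.

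Most markers of other cells had positive log2 fold changes as well. Of 14 lymphocyte markers 7 passed the filter on low counts, which a gene can pass through 1 group alone. All 7 were positive, and without the filter 12 of 14 were. The sums in this paragraph run over all markers of a list, tested or not. For lymphocytes they were 4.25 to 8.05 CPM in nANGPTL4 AAV and 3.52 to 4.003 CPM in control AAV libraries. Of 14 myeloid markers 7 were tested and 5 of these were positive (34.5 to 56.6 CPM in nANGPTL4 AAV, 21.8 to 42.9 CPM in control AAV). Without the filter 10 of 14 were positive. Of 17 lung epithelial markers 15 were positive (492 to 606 CPM in nANGPTL4 AAV, 350.3 to 515 CPM in control AAV), and of 14 fibroblast and mural markers 7 were (83.9 to 177 CPM in nANGPTL4 AAV, 73.4 to 144 CPM in control AAV). Of 10 erythroid and platelet markers 8 were tested and all 8 were positive (70.1 to 82.1 CPM in nANGPTL4 AAV, 43.6 to 83.3 CPM in control AAV). Without the filter 10 of 10 were positive. No marker was at 0 in all libraries, and edgeR called 1 of these markers of other cells, Scgb3a2, an airway secretory gene. Over all genes edgeR called 0.138% and DESeq2 6.14%. DESeq2 also called the airway gene Scgb1a1, the macrophage gene Cd68 and the globin gene Hba-a2, with adjusted p-values of 0.0408, 0.00095 and 0.0484, and 1 further lung epithelial marker, and edgeR called Scgb1a1 without control AAV library 3 (adjusted p = 0.0328). With a score of these markers as a covariate the median of the ribosomal protein genes was 0.06, 72 of 84 were positive and 1 was higher at an unadjusted p under 0.05. The 16 pan-endothelial markers, which are not in that score, leaned the other way. Of these, 14 were negative, with a median of -0.05, and 3 were lower at an unadjusted p under 0.05 by edgeR. This depended on the scaling: 7 of 16 were positive with upper quartile scaling (median -0.0061) and with library size only (median -0.0026). Of genes with a mean log2 CPM over 3, 62.5% were negative and 18.2% lower at that p.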

How the data were processed

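Per the labels' protocols, RNA of sorted lung endothelial cells was isolated with a PicoPure kit, and libraries were made with a SMARTer Ultra Low Input v4 kit and a NEBNext ChIP-Seq kit. Per the submitters' processing notes the build was mm10. An aligner, a counting tool, its handling of strand and an annotation are not given in the sources used here. Deposited were raw read counts per gene as whole numbers, with totals of 83183122 to 114337333 per library. A symbol was found for 31491 of 31610 gene identifiers once version numbers were dropped (26730 with them kept), 47 genes had no count, and 0 sample columns were left unmapped. Fits used edgeR 4.0.16 in R 4.3.3: filterByExpr with a minimum count of 10, TMM scaling, the quasi-likelihood F test with group as the only term, and Benjamini-Hochberg adjustment over 18874 genes, with a call at an adjusted p under 0.05. CPM was computed from the deposited counts with TMM-scaled library sizes, with a prior count of 2 on the log2 scale. The biological coefficient of variation was 11.3%.

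Exons, transcripts and principal transcripts (APPRIS) came from GENCODE M21, and promoter windows from RefSeq on GRCm38.p6. Sequence sharing was counted as the share of 31-base stretches of a gene's longest transcript that were found in transcripts of other annotated genes. Either strand counted, and genes at the same locus were included. Coding sequences were taken as the longest open reading frame and aligned with Biopython 1.88. The GC content and length correction fitted a smooth of both to each library with mgcv 1.9.3 and entered it as an offset. Alternatives were upper quartile and library size scaling, a stricter low-count filter or none, DESeq2 1.42.0, limma-voom (limma 3.58.1), a robust fit, a block for the replicate number, removal of each library in turn, a marker score as covariate and pseudogene rows added to their parents. The removal of both libraries numbered 2, the principal transcript in place of other lengths, and both motifs other than the TOP tract were added after the data were seen. The permutation tests of the paralog ratios were not planned either. Overlap of groups was judged on CPM. The fits were tested on simulated counts.

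The members, the gene lists and the tests were chosen with earlier results of these data known. Named with values were, in each subunit, the 4 genes with the smallest p, the 2 highest and 2 lowest fold changes and the 2 highest and 2 lowest levels per kb of exons, a fixed set of stalk, regulatory and paralogous genes, and of each other list any called member and the 2 with the smallest p. Other subunit genes appear for their sequence. Some genes that this rule names are not reported here, though they stay in the counts and fits. Counts are less certain where the counting split reads between near-identical copies or between genes that overlap on the same strand. Without strand, this holds also for overlapping genes on opposite strands: Wdr38 overlaps 66.2% of the annotated exons of Rpl35, and Tlcd1 59.7% of those of Rpl23a.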

Additional observations from a re-analysis of the deposited data

Results flagged for a closer look

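Of 126 groups of 4 values tested for a sample far from the others, 8 were flagged, where chance flags about 1 in 20. Among nANGPTL4 AAV libraries, library 2 stood at 31.1 CPM for Rpl37, with the others at 27.3 to 27.8 CPM, and at 21.03 CPM for Rps24, with the others at 18.02 to 18.3 CPM. The same library was the highest for 49 of the 84 ribosomal protein genes. In nANGPTL4 AAV library 3, Rpl3l stood at 1.78 CPM, with the others at 1.20 to 1.24 CPM, and the log2 ratio of Rpl22l1 to Rpl22 at -1.46, with the others at -1.88 to -1.83. Cd68, a macrophage marker, stood at 5.66 CPM in nANGPTL4 AAV library 2, with the others at 6.81 to 6.92 CPM. In control AAV library 1, Rps3 stood at 117.6 CPM, with the others at 110.2 to 111.4 CPM, Tsc1 at 41.3 CPM, with the others at 37.1 to 37.6 CPM, and Max at 55.4 CPM, with the others at 44.9 to 46.5 CPM.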

How the results depend on the processing

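The 26 genes called over all tested genes numbered 4 by upper quartile scaling, 4 with library size only, 1 with the stricter low-count filter, 956 with DESeq2, 59 with the robust fit, 6 with the replicate block, 1 with the GC and length correction (2 on the principal transcript), 5 with both block and correction, 1 with the marker score, 2 without both libraries numbered 2, and 1 to 2 with any 1 library left out. The replicate numbers are shared only as numbers: same-numbered libraries correlated at 0.15, 0.14, -0.25 and -0.38 over 9241 genes, and the replicate block called 0 ribosomal protein genes. Ribosomal protein genes called numbered 1 with DESeq2, Rpl41 at a log2 fold change of 0.18, and 0 in every other alternative.

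Ribosomal protein genes higher at an unadjusted p under 0.05 numbered 6, and 22 with upper quartile scaling, 23 with library size only, 11 with the stricter filter, 3 with the replicate block, 2 with the correction (2 on the principal transcript), 0 with the correction and block, 1 with the marker score, 1 without both libraries numbered 2 and 3 to 12 with 1 library left out (12 without control AAV library 1, 3 without control AAV library 2). Those lower numbered 0 to 1 with 1 library left out. Positive log2 fold changes, 76 of 84, numbered 48 with the correction on the principal transcript and 69 to 78 with 1 library left out. The median, 0.06, was 0.04 to 0.10 with 1 library left out and positive in every alternative. Upper quartile scaling and library size only gave medians of 0.10 for these genes. The median level per kb, 16.3 CPM, was 26.5 CPM on the longest and 32.5 CPM on the principal transcript, and the share with a TOP tract, 22.8%, was 47.4% within 5 bases.

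Log2 fold changes changed sign in 42 cases, and the cause was not tested. With the GC and length correction they were -0.010 for Rpl11, -0.086 for Rpl24, -0.019 for Rplp1, -0.060 for Rps15, -0.067 for Rps27l and -0.051 for Rps6. With this correction and the replicate block they were -0.010 for Rpl11, -0.080 for Rpl24, -0.019 for Rplp1, -0.060 for Rps15, -0.066 for Rps27l and -0.048 for Rps6. On the principal transcript they were -0.016 for Rack1, -0.0012 for Rpl11, -0.063 for Rpl24, -0.045 for Rps15, -0.059 for Rps27l and -0.044 for Rps6. Without both libraries numbered 2 they were -0.0036 for Rpl11, -0.0057 for Rpl23a, -0.017 for Rpl24, -0.0081 for Rps15, -0.022 for Rps24, -0.018 for Rps27l, -0.014 for Rps3 and -0.055 for Rps6. With limma-voom they were -0.0059 for Rpl24 and -0.0089 for Rps27l, with the marker score -0.020 for Rpl24, -0.029 for Rps27l and -0.00083 for Rps6, and for Rpl36al 0.0035 by the upper quartile and 0.0067 by library size only. With 1 library left out, those that changed sign ranged over -0.0031 to 0.027 for Rack1, -0.031 to 0.088 for Rpl24, -0.0018 to 0.046 for Rps27l, -0.0091 to 0.054 for Rps3, -0.0075 to 0.27 for Rps4l and -0.024 to 0.044 for Rps6.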

Other observations

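The order of the 77 subunit genes by level per kb was nearly the same in nANGPTL4 AAV and control AAV libraries, with a Spearman correlation of 0.999 over genes, given as a description. The median coefficient of variation of the ribosomal protein genes between libraries of a group was 5.34% in nANGPTL4 AAV and 5.91% in control AAV.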
